A study of Homo sapiens with 68 samples.

Results

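RNA recovered with an antibody to hnRNPA1 was compared between cells that had been crosslinked with ultraviolet light (UV) and cells that had not, both after gel purification. The members were chosen by their labels: 2 libraries titled noUV_hnRNPA1 and 2 titled hnRNPA1_50k_lowRNase, 4 of the 68 libraries of the series and 1327837 of its 15800601 listed peaks. All 4 were made from HEK293T, an established line of human embryonic kidney cells, with 50000 cells, 0.005 U of RNase, the 4B10 antibody and excision of the complexes from a polyacrylamide gel (PAGE). The only labelled difference is UV. It is taken from the titles, because every sample carries the same protocol text, which describes crosslinking. The accessions of the libraries without crosslinking form a run apart from those of the crosslinked ones, so a preparation batch, if there was one, and the omission of UV cannot be told apart. The labels do not say whether the 2 replicates of a group are separate cultures, so spreads and p-values measure only the difference between these libraries.

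TLC-CLIP, the method used, belongs to the crosslinking and immunoprecipitation family. UV light joins a protein covalently to the RNA it touches, the protein is precipitated, and the attached RNA fragments are sequenced. A library made without UV holds RNA that came through the precipitation, washes and gel without a covalent bond to the protein. hnRNPA1 is an abundant, mainly nuclear RNA-binding protein of the hnRNP family that coats newly made transcripts, acts in splice site choice and shuttles to the cytoplasm. The mitochondrial chromosome is transcribed inside mitochondria, from both strands, into ribosomal, transfer and messenger RNAs.

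Without crosslinking, fewer peaks were listed, while the number of genes with a peak differed less. The crosslinked libraries listed 515303 and 501950 peaks and the libraries without crosslinking 163669 and 146915, with no overlap between the groups. The difference was -1.71 on the log2 scale, a ratio of 0.305 between group means (exact two-sided permutation test, p = 0.333, the smallest that 2 against 2 libraries allow). The number of sequenced reads is unknown, so its part in the peak number was not tested. Ensembl gene identifiers with a peak numbered 14532 and 14528 with crosslinking, against 13487 and 13156 without. When cut to 146915 peaks each by p-value, the lists reversed this order, with more genes listed without crosslinking (0.35 on the log2 scale). Median peak width was 61 and 60 nt with crosslinking and 58 and 57 nt without, a difference of -3 nt that became -21.5 nt with lists of equal length, -10.5 nt with p-values below 1e-05 and -7 nt with at least 10 reads. The groups did not overlap, and the exact permutation p was again 0.333 for the numbers of genes and for the widths.

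The reads that remained were concentrated in few peaks. Each peak name ends in a number that was read as the reads over the peak, although its meaning is not stated, and its sum over a list is called summed reads here. The 100 strongest peaks held 6.69% and 5.48% of summed reads with crosslinking and 28.01% and 28.8% without. Peaks with 100 reads or more made up 0.367% and 0.351% of the crosslinked lists, against 1.52% and 1.27% of the others. The median peak nevertheless had fewer reads without crosslinking, 8 and 8 against 10 and 9. The lists without UV thus combined a weaker typical peak with a larger share of very strong ones.

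Much of that concentration lay on the mitochondrial chromosome. Mitochondrial peaks held 1.99% and 1.505% of summed reads in the crosslinked libraries and 24.0% and 23.8% in those without crosslinking. The means were 1.75% ± 0.342 (SD, n = 2) and 23.9% ± 0.144 (SD, n = 2), a difference of 22.1 percentage points and a ratio of 13.7. The exact permutation p was 0.333, again the smallest possible. The number of mitochondrial peaks was 74 and 71 with crosslinking and 131 and 123 without, a smaller ratio than that of their reads.

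The other hnRNPA1 libraries place this value. The crosslinked libraries with medium RNase (0.025 U) and PAGE had 0.593% and 0.496%. Crosslinked libraries made without PAGE had 24.2% and 24.5%, and those with an added RecJ exonuclease step 22.3% and 23.2%. Libraries without crosslinking and without PAGE had 34.9% and 36.4%. The gel-purified libraries without UV therefore lay within the range of the crosslinked libraries that never saw a gel, and far above the crosslinked gel-purified ones. Over all 12 hnRNPA1 libraries, permuted within PAGE status, the share was 17.4 percentage points higher without crosslinking (exact two-sided permutation test over 225 relabellings, p = 0.00444, the smallest they can give). That test was added after the values had been seen. It takes libraries as units, although the 2 libraries of a group gave nearly the same value. The medium RNase and RecJ libraries count in it as further crosslinked libraries. Its p-value therefore compares these libraries and is no test of UV. Libraries without UV from the other antibodies, with PAGE, also carried mitochondrial reads, with 24.6% and 13.5% for hnRNPc, 8.43% and 7.21% for hnRNPI and 19.3% and 17.5% for RBFOX2.

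**Figure D1:**
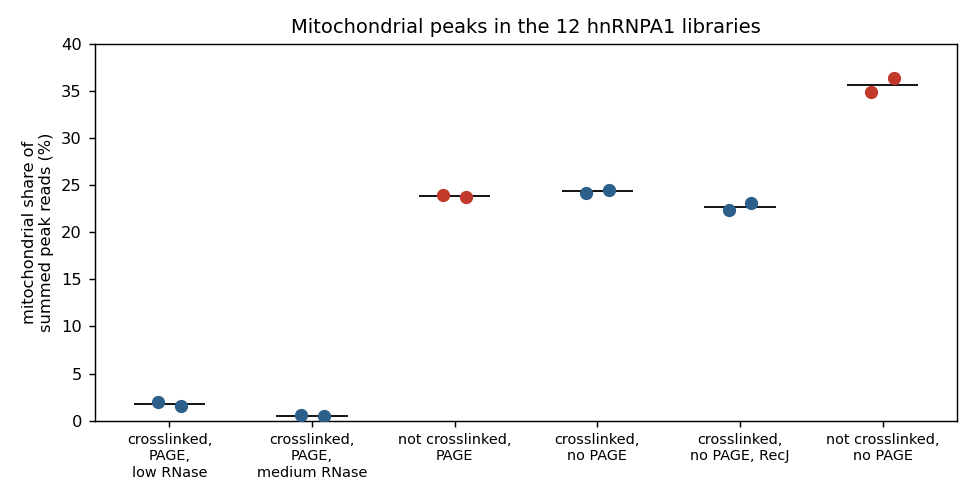
Mitochondrial share of summed peak reads (%, linear axis) in the 12 hnRNPA1 libraries, in 6 groups of 2; points are libraries, lines are means, red marks libraries without crosslinking. The gel-purified libraries without crosslinking sit at 24.0% and 23.8%, beside the crosslinked libraries without PAGE and far above the crosslinked gel-purified ones.

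Nearly all mitochondrial reads fell in 2 stretches of the plus strand. Peaks of the gene at chrM:1675-3182 (all coordinates are hg19; those of the mitochondrial genes run from the first to the last peak in crosslinked replicate 1, and those of other genes over all lists of the series) held 1.73% and 1.25% of summed reads with crosslinking and 11.9% and 12.7% without. Peaks of the gene at chrM:684-1485 held 0.189% and 0.193% with crosslinking and 10.8% and 9.76% without. The second stretch thus differed by the larger ratio, and without crosslinking the pair had nearly equal shares. The same pair differed in the crosslinked libraries without PAGE, where the first held 21.7% and 22.1% and the second 1.84% and 1.77%. So the total mitochondrial share was alike in those libraries and in the gel-purified ones without UV, but its split between the genes was not. A further locus, on the minus strand at chrM:14300-14451, held 0.0406% and 0.0383% with crosslinking and 0.448% and 0.683% without.

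Most crosslinked sites were not listed without crosslinking. A site is a same-strand union of peaks of the 4 libraries that share at least 1 nt. Of 261472 sites listed in both crosslinked libraries, 50189 were kept, that is listed in both libraries without UV, which is 19.2%. Another 33583 (12.8%) were listed in 1 of them, and 177700 were lost, listed in neither (68% of the sites). Per library, 26.3% and 24.9% of the crosslinked sites were listed (25.6% ± 1.01, SD, n = 2). These percentages depend on the length of the lists: with 146915 peaks in every list, 34.2% were kept. With 1 crosslinked library in place of 2, so that unreplicated sites also count, 12.2% were kept without crosslinked replicate 1 and 11.9% without crosslinked replicate 2.

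Seen from the other side, most of what was listed without UV was also a crosslinked site. Of 85432 sites in both libraries without crosslinking, 58.7% were in both crosslinked libraries and 18.6% in 1 of them. The remaining 19363, 22.7%, were in neither and are called sites only without crosslinking. With lists of equal length that share was 49.2%, and without replicate 2 of the libraries without crosslinking it was 34.8%. Peak by peak, 56.5% to 58.9% of the peaks without UV were overlapped by a crosslinked library, against 12.8% to 13.3% after they had been moved by 1000 nt. The 2 crosslinked libraries overlapped 56.1% and 57.9% of each other's peaks, and 13.6% and 14.1% after the move. The 2 libraries without UV, with shorter lists, overlapped 58.8% and 65% of each other's peaks, and 4.83% and 5.39% after the move. Peaks without UV thus met a crosslinked list about as often as the crosslinked replicates met each other, and met each other at least as often against a lower background. In the opposite direction 16.6% to 18.2% of the crosslinked peaks were overlapped by a library without UV, against 3.82% to 4.24% after the move.

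Whether a site was kept followed its strength with crosslinking. Of sites with 4 to 5 reads in the weaker crosslinked library, 7.97% were kept, of those with 10 to 19 reads 19.6%, and of those with 20 to 49 reads 39.3%. Of the 993 sites with 100 reads or more, 72.7% were kept and 19.7% were lost. The first library without UV listed 12.8% of the weakest and 78.0% of the strongest class, and the second 11.8% and 74.9%. Strong sites are listed more often at any depth, so this gradient is a description.

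**Figure D2:**
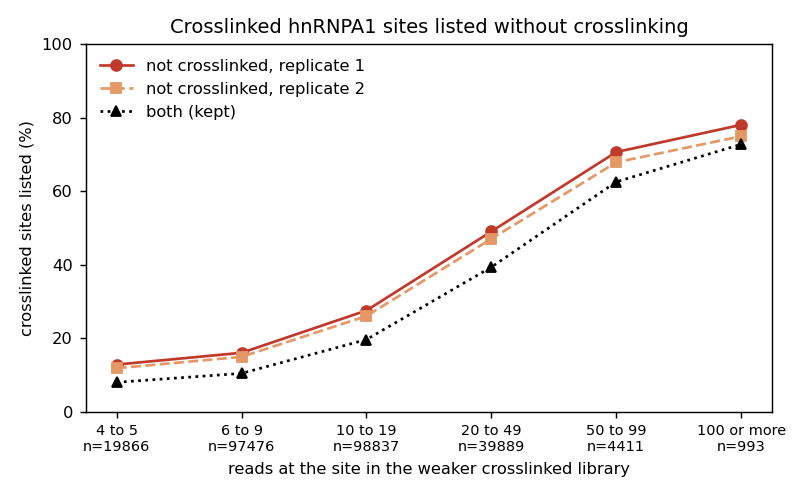
Percent of sites of both crosslinked libraries that were listed without crosslinking (linear axis), by class of reads in the weaker crosslinked library; circles and squares are the 2 libraries without crosslinking, triangles the sites in both. The 2 libraries follow each other closely, and the kept share goes from 7.97% in the weakest class to 72.7% in the strongest.

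Libraries that did not define the classes ordered them in a graded way. Medium RNase libraries, crosslinked and gel purified, overlapped 81.6% ± 1.39 (SD, n = 2) of kept sites, 50.2% ± 2.55 of lost sites and 16.8% ± 1.05 of sites only without crosslinking. Kept sites were ahead of lost sites by 31.4 percentage points, and by 16.4 points with lists of equal length. Without crosslinked replicate 1 or 2 the gap was 42.1 or 42.9 points. The gap was present at matched strength too: at 10 to 19 reads, 80.6% and 82.9% of kept sites were listed with medium RNase, against 58.7% and 62.8% of lost sites. A kept site also takes in the peaks of both libraries without UV, which makes it wider by construction (median 105 against 90 nt in this class) and easier to overlap, and the part of width in the gap was not tested. Lost sites were therefore less often found in other crosslinked libraries, but most strong lost sites were, with 90.8% and 91.8% at 100 reads or more.

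The hnRNPA1 libraries without UV and without PAGE held few lost sites. They overlapped 86.7% ± 3.46 (SD, n = 2) of kept sites, 74.0% ± 2.62 of sites only without crosslinking and 6.87% ± 0.996 of lost sites. The crosslinked libraries without PAGE overlapped 90.4% ± 0.559, 34.8% ± 1.80 and 58.9% ± 1.19 of the same classes. Among hnRNPA1 libraries without PAGE, sites only without crosslinking were thus listed more often where UV had been omitted. This was so although those lists were shorter, at 180477 and 196278 peaks. Lost sites were listed more often in the longer, crosslinked lists, and the part of list length in that difference was not tested. Libraries without UV from other antibodies, with PAGE, overlapped 19.8% (hnRNPc), 2.36% (hnRNPI) and 7.62% (RBFOX2) of sites only without crosslinking. Their lists hold 18690 to 299616 peaks, against 499537 and 523402 in the crosslinked hnRNPA1 libraries without PAGE. Longer lists overlap more sites, so no order is drawn from the values of the other antibodies.

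**Figure D3:**
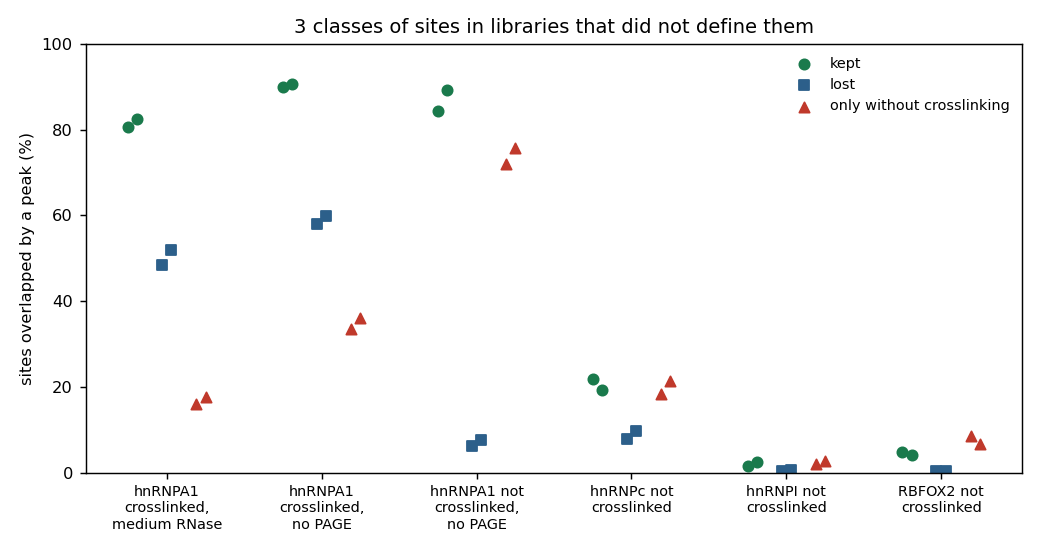
Percent of kept sites (circles), lost sites (squares) and sites only without crosslinking (triangles) overlapped by a peak (linear axis) in 6 groups of 2 libraries that did not define the classes; each point is a library. Lost sites are at 6.87% on average in hnRNPA1 libraries without crosslinking and PAGE, against 58.9% in crosslinked ones without PAGE, whose lists are longer.

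What stayed listed without UV differed between antibodies. Of the 5000 peaks with the smallest p-value in each library, 83.4% and 84.3% in the hnRNPA1 libraries without UV lay on a site of both crosslinked hnRNPA1 libraries. For the other antibodies without UV the values were 29.0% and 29.9% (hnRNPc), 16.0% and 15.8% (hnRNPI) and 27.9% and 27.1% (RBFOX2). hnRNPA1 was 59.6 percentage points above the other 6 libraries, and higher in 2 of 2 libraries (exact two-sided permutation test over 28 splits, p = 0.0357, the smallest they can give). The test takes libraries as units, although libraries of the same antibody gave nearly the same value. Its p-value therefore compares these libraries and is no test between antibodies. The gap was 56.5 to 60.7 points over the alternatives. Leaving out hnRNPA1 replicate 1 or 2 without UV gave 60.0 and 59.1 points, where 7 splits cannot give an exact permutation p under 0.143.

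The other antibodies without UV listed few of the kept sites as a whole. They overlapped 20.6% ± 1.76 (SD, n = 2) of kept sites for hnRNPc, 2.11% ± 0.646 for hnRNPI and 4.42% ± 0.588 for RBFOX2. Their lists differ in length, from 18690 to 299616 peaks, so no order among the antibodies is drawn from this. Within each of them lost sites were rarer than kept ones, at 8.67%, 0.470% and 0.435%. Kept sites were also wider, with a median of 110 against 84 nt. They had more crosslinked reads too, with medians of 19 and 18 against 11 and 11. The part of width and reads in this difference was not tested.

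The strongest kept sites were listed more widely. The rule took the 10 kept sites with the best p-value rank without crosslinking, 1 per gene. All 10 tied at the first rank, so the tie was in effect settled by reads without UV, and their order below is by those reads. All 10 were listed in both medium RNase libraries, in both crosslinked libraries without PAGE and in both libraries without UV and PAGE. In libraries without UV from other antibodies, 7 of the 10 were in all 6 libraries and 9 in at least 5.

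The first is chrM:1413-1499 on the plus strand, with 2942 and 3007 reads in the crosslinked libraries and 73082 and 62333 without crosslinking. The second, chrM:1675-1792, had 10247 and 7883 reads, then 54223 and 40901. Next came chr6:52860642-52860733, with 64320 and 57922 reads with crosslinking, the most of any peak in those lists, and 30790 and 27871 without. These read numbers are unscaled. Summed reads were 7558564 and 7121272 with crosslinking and 3500463 and 2957736 without. Those sums run over lists of unequal length and are not sequencing depth, so the read numbers were not scaled by them.

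Since these sites were picked for many reads without UV, their difference from the crosslinked libraries is a description of the choice. It varied between sites. At chr6:84887131-84887157, on the minus strand, there were 38 and 59 reads with crosslinking and 2934 and 2884 without. At chr11:32126657-32126744 there were 90 and 92, then 3150 and 1976. At chr17:7481827-7481922 there were 196 and 267, then 2774 and 2565. At all 3 sites the groups lay far apart and the replicates of a group lay close together.

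**Figure D4:**
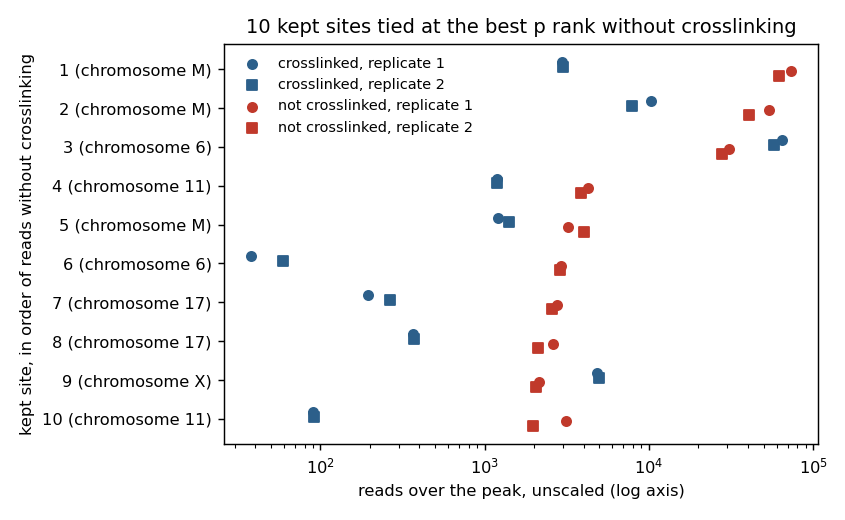
Reads over the peak (log axis, unscaled) at the 10 named kept sites, all tied at the best p-value rank without crosslinking and ordered by reads there; blue marks the crosslinked and red the other libraries, circles replicate 1 and squares replicate 2. The sixth site goes from 38 and 59 to 2934 and 2884 reads, while the third goes from 64320 and 57922 down to 30790 and 27871.

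Over all 50189 kept sites, median reads were 19 and 18 with crosslinking and 13 and 12 without. Both libraries without UV had fewer reads than either crosslinked one at 25412 kept sites (50.6%) and more at 8456 (16.8%). These numbers are unscaled. Summed reads without UV were 0.44 of those with crosslinking, but these sums run over lists of unequal length. Kept sites are by definition listed in both libraries without UV. The split is therefore a description, and whether kept sites differ in level was not tested. Of the sites with more reads, 36 were mitochondrial, and of those with fewer reads, 0. At 79 sites (0.157%) both libraries without UV had at least 10 times the reads of either crosslinked library, 9 of these mitochondrial. These 79 sites were picked by their reads without UV, so their listing in other libraries is a description. hnRNPc libraries without UV listed 69.6% and 67.1% of them, hnRNPI 38.0% and 43.0% and RBFOX2 53.2% and 48.1%. The same libraries listed 20.4% and 17.6%, 1.05% and 1.90%, and 2.82% and 2.18% of the kept sites with fewer reads. All 8456 sites with more reads, which include the 79, lay between, at 34.9% and 31.8%, 4.88% and 6.14%, and 14.0% and 12.3%. Medium RNase libraries listed 53.2% and 58.2% of the 79 sites, 68.1% and 70.6% of those with more reads and 87.8% and 89.3% of those with fewer reads. These sets were not matched for reads, and the difference between them was not tested.

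Read numbers at kept sites were alike within a group and less alike across. Over 50189 kept sites, Pearson's r of log2 reads was 0.849 between the crosslinked replicates and 0.870 between those without crosslinking, and 0.408 to 0.432 across the groups. These are correlations over sites that share their libraries and are given without a test.

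The leading lost sites were listed in other crosslinked libraries. The 10 lost sites with the best p-value rank in the crosslinked libraries were all in both medium RNase libraries and in both crosslinked libraries without PAGE. In the libraries without UV and PAGE, 8 of the 10 were in neither. Examples are chr22:38886251-38886390 on the minus strand, with 533 and 475 crosslinked reads, chr17:34151303-34151482, with 366 and 269, and chrX:107968825-107968998 on the minus strand, with 652 and 617. All 3 had no peak in either gel-purified hnRNPA1 library without UV, but each was in at least 1 hnRNPc library without UV. Of the 10, 8 were in at least 1 of the 6 libraries without UV from other antibodies. The lost site ranked first, chrM:1829-1848 with 6791 and 5249 reads, is 20 nt long and lies in a gene with 17 and 16 crosslinked peaks. Unlike the others, it was listed in all other libraries compared here. Tied with it in rank were further short sites, chrX:73043621-73043636 of 16 nt (2219 and 1967 reads) and chr11:65272508-65272546 of 39 nt (1159 and 1094 reads). The genes of these short sites each also hold a named kept site.

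The 10 first sites only without crosslinking were led by the mitochondrial chrM:2831-2855, with 23482 and 24114 reads. Next in order after a site on chromosome X came chr5:33223926-33223947 on the minus strand, with 360 and 301 reads, and chr20:31360932-31360938, with 220 and 267. All 10 were found in both libraries without UV and without PAGE, and 6 of 10 in both crosslinked libraries without PAGE. Both crosslinked medium RNase libraries listed 2 of the 10, among them the site on chromosome 5. All 10 were in at least 1 library without UV from another antibody. The class name thus refers only to the 4 libraries that define it. Several of these peaks are very short, with 22 and 7 nt for the last pair. Of the sites of this class, 6.45% lay within 30 nt of a crosslinked peak, 22.8% within 100 nt and 77.7% within 1000 nt. For lost sites, a peak without UV lay within 100 nt in 9.67% and within 1000 nt in 50.4%. These distances were not set against moved sites. The crosslinked lists are also the longer ones, so no difference between the classes is drawn from this.

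By chromosome, mitochondrial sites were the ones most often kept. Of 42 mitochondrial sites in both crosslinked libraries, 37 (88.1%) were kept and 3 lost. Among the autosomes and X, the kept share ranged from 17.4% on chromosome 10 to 23.1% on X. These shares were not matched for reads, and over all sites with 100 reads or more 72.7% were kept. The part of site strength in the mitochondrial value was not tested.

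At the level of genes, little was lost. Of 13605 gene identifiers in both crosslinked lists, 11544 (84.9%) were in all 4 lists and 1107 (8.14%) were in neither list without UV. Lost genes had few peaks to begin with: 93.7% had at most 5 on average, with a median of 1.5, against 21 for genes in all 4 lists. Of 12387 genes in both lists without UV, 451 (3.64%) were in neither crosslinked list, with a median of 1 peak.

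Within the shared genes peaks thinned out. Of 11544 genes in all 4 lists, 9414 (81.5%) had fewer peaks in both libraries without UV than in either crosslinked library, and the median ratio of peaks was 0.358. Only 319 (2.76%) had more peaks in both, 13 of them mitochondrial. The listed peaks of those 319 genes spanned a median of 8295 nt, against 37283 nt for all 11544.

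The share of sites listed without UV varied several-fold between genes. Among 3898 genes with at least 20 sites in both crosslinked libraries, the mean over the 2 libraries had a median of 24.8%, quartiles of 19.5% and 31.0%, and extremes of 0 and 76.6%. At least 50% was reached by 77 genes, 79 were under 10%, and 1 had none listed. The libraries ordered the genes alike, with Pearson's r of 0.821 over the 3898 genes.

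The gene with the highest share spans chr19:34851879-34893054, where 75.0% and 78.1% of 32 sites were listed. An overlapping identifier at chr19:34874017-34893054 had 72.4% and 75.9% of 29 sites, and since both cover the same stretch they are not separate cases. At chr15:66790801-66797185 the values were 80.0% and 70.0% of 20 sites, and at chr2:232318366-232329207 75.0% and 70.0% of 20. The first of these genes has strong sites, with a median of 98.5 reads with crosslinking.

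At the other end, none of 25 sites was listed in either library without UV for the gene at chr19:4969225-5153509. At chr17:47787733-47865613, 0% and 5.00% of 20 sites were listed, and at chr15:35148140-35261923 6.25% and 0% of 32. The 10 genes with the lowest share had median crosslinked reads of 6 to 10 per site, near the bottom of the read classes above.

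A gene at chr19:42901310-43155805 combined high retention with added sites. Of its 30 crosslinked sites, 73.3% and 73.3% were listed without UV, and 28 further sites were listed only without crosslinking. It had 58 and 58 peaks with crosslinking and 101 and 111 without, although the lists were shorter. Its share of listed peaks rose by 2.58 on the log2 scale (SE 0.113, limma adjusted p = 1.77e-07).

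Sites of short genes were kept more often than sites of long ones. The span of a gene is measured here by its listed peaks over all lists of the series, since no annotation of the build was used. Of sites in genes spanning under 5 kb, 33.1% were kept, then 26.9% at 5 to 20 kb, 20.9% at 20 to 100 kb and 16.8% at 100 kb or more. Among sites with 10 to 19 reads alone, the order was the same, with 29.1%, 24.1%, 20.0% and 18.5%. With lists of equal length it was again the same, with 50.9%, 41.0%, 35.9% and 31.3%. Median reads per site moved with the span, from 13 in the shortest to 10 in the longest class, and beyond the matched read class their part in the difference was not tested.

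The share of a library's listed peaks that a gene held was tested over 7136 genes with a mean of at least 10 peaks. The share was higher without crosslinking for 1842 genes (25.8%) and lower for 1565 (21.9%) at a limma adjusted p below 0.05, with a median difference of 0.06 on the log2 scale. A share can rise while the number of peaks falls. Genes called higher had a median of 27.2 peaks with and 16 without crosslinking, and genes called lower 90 and 16.5. These counts depend on the setting. With lists of equal length, 695 genes were higher and 1017 lower of 4191 tested, and 338 and 444 of them were called in the same direction before. The call changed sides for others: 153 genes higher in the whole lists were lower at equal length, and 70 lower ones were higher. Higher genes made up 54.1% of calls in the whole lists, 40.6% with equal lengths, 69.4% when genes with a mean of 1 peak or more were tested, 21.9% with a mean of 50 or more, 64.0% with 2 peaks added in place of 0.5, and 18.2% when summed reads replaced peaks. With summed reads the median over all genes was -0.67, with 2 peaks added 0.17 and with equal lengths -0.08, so a called direction is relative to those shifts. Without crosslinked replicate 1 the calls were 1132 higher and 819 lower, and without crosslinked replicate 2, 1183 and 876.

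**Figure D5:**
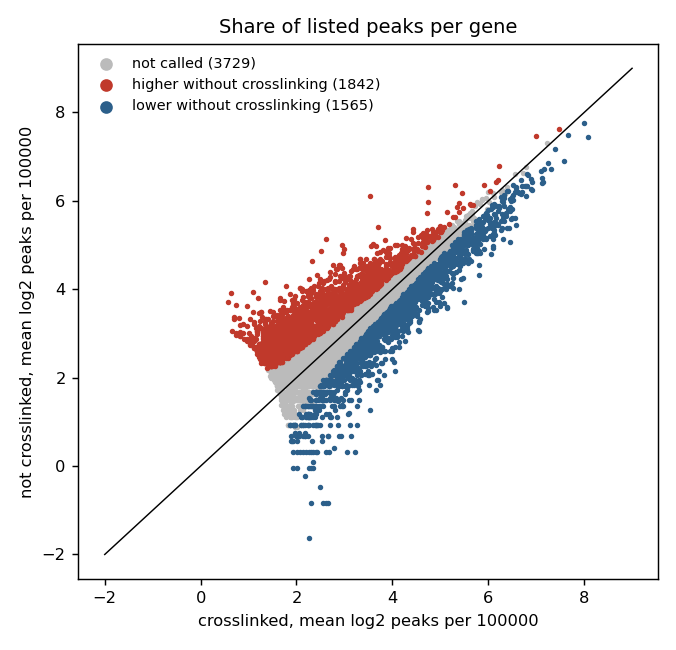
Mean log2 peaks per 100000 listed peaks for 7136 genes, crosslinked (x axis) against not crosslinked (y axis), n = 2 libraries each; red and blue mark genes higher or lower at a limma adjusted p below 0.05, and the line marks equal shares. There are 1842 red and 1565 blue genes, a split that turns to 695 and 1017 with lists of equal length.

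Genes with a large rise of share include ENSG00000124942 at chr11:62234146-62323698, which had 6 and 9 peaks with crosslinking and 26 and 20 without, a log2 share difference of 3.28 (SE 0.262, limma adjusted p = 7.05e-06). ENSG00000187498 at chr13:110801996-110958295 had 10 and 5 peaks, then 23 and 17, a difference of 3.13 (SE 0.307, limma adjusted p = 2.03e-05). For both, the number of peaks itself was higher in both libraries without UV. The share difference was positive in all 12 alternatives in which each gene could be tested. It was 2.99 to 5.62 for the first and 2.68 to 5.42 for the second, the highest with lists of equal length and median centring. Crosslinked lists cut to equal length hold fewer peaks, so the size there depends more on the 0.5 peaks added. Neither gene could be tested with p below 1e-05, with at least 10 reads or with a mean of at least 50 peaks. The mean of at least 10 peaks was reached only through the libraries without UV, where both genes are high. Their adjusted p-values are therefore given as a description.

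Among the falls, ENSG00000173638 at chr21:46927691-46962251 had 28 and 36 peaks with crosslinking and 1 and 0 without, a difference of -3.51 (SE 0.53, limma adjusted p = 0.000282). ENSG00000107130 at chr9:132934961-132999542 had 26 and 22 peaks, then 0 and 0, with a limma adjusted p of 0.000307, and its fitted difference depends on the 0.5 peaks added. Both genes reached the mean of at least 10 peaks only through the crosslinked libraries, where they are high. Their adjusted p-values are therefore given as a description and not as support for a fall. Neither could be tested with lists of equal length, and both lost the call when 1 crosslinked library was left out. The limma adjusted p was then 0.369 or 0.266 for the second and 0.0654 or 0.131 for the first, while the differences stayed near -3.80 and -4.00 for the second and -3.70 and -3.31 for the first. The difference of the first was -2.07 with 2 peaks added and -6.52 with summed reads, so its size depends on the added peaks too. The first gene was also among those with the lowest share of sites listed, with 4.76% and 0% of 21.

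The 2 main mitochondrial genes also held a larger share of the listed peaks in the whole lists. The one at chrM:1675-3182 had 17 and 16 peaks with crosslinking and 20 and 20 without, a log2 share difference of 1.98 (SE 0.194, limma adjusted p = 2.03e-05). The one at chrM:684-1485 had 11 and 12, then 14 and 15, a difference of 2.04 (SE 0.238, limma adjusted p = 5.73e-05). Neither call held with lists of equal length, where the differences were 0.27 (limma adjusted p = 0.126) and 0.32 (limma adjusted p = 0.132). For reads the difference remained large: the mitochondrial share of summed reads was then 21.2 percentage points higher without crosslinking.

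Calls by the span of genes did not have a stable direction. In the whole lists 96.2% of the 26 genes spanning under 5 kb were higher and 0% lower, 54.5% of genes spanning 5 to 20 kb were higher and 1.25% lower, and of genes spanning 100 kb or more 14.0% were higher and 42.2% lower. With lists of equal length the 15 genes left under 5 kb were higher in 13.3% and lower in 6.67%, those at 5 to 20 kb in 9.48% and 19.6%, and those at 100 kb or more in 24.0% and 25.8%. The excess of rises at 5 to 20 kb thus did not hold at equal length, while the kept share of sites kept its order over the span classes.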

How the data were processed

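TLC-CLIP peak lists of 4 hnRNPA1 libraries were compared, with further libraries of the series as readouts. Per the submitters' processing notes, bcl2fastq, STAR 2.7.3a, UMI-tools 1.0.1 and genome build hg19 were used, and the file names give CLIPper as the peak caller. The lists were made per library. Each p-value is the deposited value of the authors' peak caller, with no adjustment stated. The last number of each deposited peak name, a count by its form and not by any statement of the authors, was read as reads over the peak. Sequencing depth is unknown, so no count interval was computed. An overlap needed 1 nt in common and the same strand.

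Peak shares per gene, log2((peaks + 0.5)/(total + 1) × 100000), were tested with limma 3.58.1 (R 4.3.3) with Benjamini-Hochberg adjustment, for genes with a mean of at least 10 peaks. The scripts were tested on simulated data. Single values used exact permutation tests over libraries. Alternatives were p below 1e-05, at least 10 reads, lists of equal length, other joining, pseudocounts and filters, a replicate block and leaving out each library.

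Named genes were the 10 largest share differences in each direction and the 10 highest and lowest shares of sites listed. Named sites were the 10 best ranked per class, 1 per gene. Examples of these are printed. The gene table at hand holds no Ensembl identifiers, so 0 were matched to names. Gene lists and HEK293T markers given by symbol, and sequences, were therefore not used here. The members and lists were chosen with earlier results of these data known.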

Additional observations from a re-analysis of the deposited data

Results flagged for a closer look

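The effect of omitting UV on median peak width had opposite signs with and without PAGE. With PAGE the median went from 61 and 60 nt to 58 and 57 nt, a difference of -3 nt, which grew to -21.5 nt with lists of equal length. Without PAGE it went from 62 and 61 nt to 65 and 64 nt, a difference of 3 nt. The effects differ by -6 nt, with every library of each set on its own side. The difference between the effects was not tested, and the effect without PAGE was not recomputed with lists of equal length.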

How the results depend on the processing

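The number of genes listed reversed with lists of equal length (0.3535 on the log2 scale against -0.1254), and kept its sign in the other 7 alternatives. The median width difference was -10.5 nt with p below 1e-05, -7 nt with at least 10 reads and -21.5 nt with lists of equal length, against -3 nt. Kept sites made up 15.2% with at least 10 reads, 34.2% with lists of equal length, 42.26% with at least 20 reads in both crosslinked libraries (added after seeing the data), 15.75% with replicate 1 peaks as sites and an overlap of 50%, and 11.88% to 26.27% without 1 library. Sites only without crosslinking made up 31.9% with p below 1e-05, 25.94% with at least 10 reads, 49.24% with equal lengths, 27.97% with replicate 1 peaks as sites, and 32.35% to 34.8% without 1 library. The lead of kept over lost sites in medium RNase was 32.66 points with at least 10 reads, 16.44 with equal lengths, 33.25 with replicate 1 peaks as sites, and 26.36 to 42.91 without 1 library. The lead of hnRNPA1 over other antibodies was 57.86 to 60.69 points without 1 library. Genes with a higher and lower share numbered 918 and 1037 with p below 1e-05, 695 and 1017 with equal lengths, 815 and 869 with equal lengths and median centring (added after seeing the data), 227 and 811 with a mean of at least 50 peaks, and 977 and 4380 with summed reads. Higher genes numbered 1058 with at least 10 reads and 3651 with a mean of at least 1 peak. Without 1 library they ranged from 1132 to 2273, and lower genes from 819 to 1950. Apart from the fewer genes or libraries entering some of these, the cause was not tested.

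Replicate numbers are shared by the groups but did not pair the samples: deviations of same-numbered libraries correlated at 0.00346 over genes. With a replicate block, 1934 genes were higher and 1674 lower, the log2 peak number differed by -1.714, the log2 number of genes by -0.1254 and the median width by -3 nt. Sequencing depth is unknown and limits every statement that a site or gene was not listed.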
